A study of Mus musculus with 4 samples.

Results

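The genes described are 8 integrin subunits of mesenchymal cells: the alpha subunits Itga1, Itga5, Itga8, Itga11 and Itgav, and the beta subunits Itgb1, Itgb3 and Itgb5. Their probes were found by gene symbol in the annotation of the array's probes. The genes themselves were listed with earlier results of these data known. Of the 8 genes 7 had a probe, with 11 probes among the 25697 of the array, which represent 16593 genes. Itga8 was not analysed here, because no probe carried its symbol in the annotation used. By its title the study concerns direct conversion to dopamine neurons under an electromagnetic field. Its 4 groups of mouse cells were APNL+AuEMF, APNL, Primary neuron and Fibroblast, with 1 Illumina BeadChip array each. The labels give nothing beyond these group names. The abbreviations are not explained there; as background from outside the labels, APNL probably stands for delivered transcription factors and AuEMF for gold nanoparticles under the field. The labels do not give the strain, the age of the animals, the source of the fibroblasts or the neurons, the time in culture, or a control for gene delivery.

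Integrins are receptors that span the cell membrane as pairs of 1 alpha and 1 beta subunit and tie the matrix outside to the actin cytoskeleton inside. The pair decides the ligand. Itga1 and Itga11 pair with Itgb1 as collagen receptors, Itga5 with Itgb1 is the classical fibronectin receptor, Itga8 with Itgb1 binds nephronectin and other ligands with the Arg-Gly-Asp motif, and Itgav with Itgb3 or Itgb5 binds vitronectin and takes part in the release of latent TGF-beta. Fibroblasts carry many of these receptors, and Itga11 is known as a fibroblast collagen receptor. Neurons also use integrins, among them those with Itgb1, in outgrowth and at synapses.

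Promoter sequences of 3 of the genes are shown because these genes span the range of differences reported below: Itga11 and Itga1 differed most between primary neurons and fibroblasts, and Itga5 differed least. Each line gives the 250 bases before the annotated start, 5′ to 3′ on the strand of the gene, from RefSeq on GRCm38.p6. Capitals mark the GC box, GGGCGG on either strand.
Itga11, chr9:62677605-62677854, plus strand: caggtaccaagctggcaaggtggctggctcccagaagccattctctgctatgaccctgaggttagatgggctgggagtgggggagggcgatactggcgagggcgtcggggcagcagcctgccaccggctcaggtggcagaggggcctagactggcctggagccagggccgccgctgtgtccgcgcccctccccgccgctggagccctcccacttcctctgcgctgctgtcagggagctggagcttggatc
Itga1, chr13:115101965-115102214, minus strand: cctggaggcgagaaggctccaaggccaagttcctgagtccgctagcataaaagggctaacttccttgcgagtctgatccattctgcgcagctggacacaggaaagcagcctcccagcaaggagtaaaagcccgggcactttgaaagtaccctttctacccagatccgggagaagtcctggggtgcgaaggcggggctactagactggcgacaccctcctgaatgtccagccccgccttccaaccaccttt
Itga5, chr15:103366792-103367041, minus strand: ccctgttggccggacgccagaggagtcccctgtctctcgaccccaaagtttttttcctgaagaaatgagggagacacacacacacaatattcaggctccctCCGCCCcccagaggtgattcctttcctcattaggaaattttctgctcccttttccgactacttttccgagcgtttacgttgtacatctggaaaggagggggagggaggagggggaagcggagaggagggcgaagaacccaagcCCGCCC
RefSeq promoters were matched by symbol for 7 of the 8 genes, all but Itgb3. In these 250-base windows Itga5 held 2 GC boxes, Itgb5 held 3 and Itgb1 held 1, while those of Itga11, Itga1, Itgav and Itga8 held 0. Of 32851 promoters of this length 32.7% held at least 1 such box. No window of the 7 held the letters of a TATA box (TATAAA, in 12.4% of all), and no window held a CArG box, the motif of serum response factor (1.47% of all). The TEAD motif GGAATG was found once, in the window of Itgb1, against 12.6% of all promoters. The windows of Itga11 and Itga1 were 68.4% and 57.6% G or C, that of Itga5 was 55.6%, and the median promoter was 52.4%. These letter matches are a description and not evidence of binding.

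A probe counted as detected when its detection p, which sets it against the negative controls, was under 0.01. This held for 11776 probes on the APNL+AuEMF array, 11030 on APNL, 12287 on Primary neuron and 10643 on Fibroblast, at median raw intensities of 191.9, 174.0, 206.7 and 169.1 in that order. Levels are log2 values after background correction and quantile normalization, and a gene is called higher or lower from a difference of 2-fold upwards, while smaller differences are given as values. Levels of different probes cannot be set against each other, so each gene is compared with itself across arrays. With 1 array per group no difference has a replicate check or a p-value, and precision is limited by having 4 arrays in all. As a measure of agreement between probes, genes with exactly 2 probes detected on both arrays were used. The gap between the 2 probes' log2 differences had a median of 0.13 for APNL minus Fibroblast (90th percentile 0.37, 1321 genes). For Primary neuron minus Fibroblast the median was 0.29 (90th percentile 0.99, 1295 genes). Both probes share the samples and arrays, so the gap leaves out errors of sample or array. A difference beyond the gap is therefore not shown to exceed such errors. Of 12 fibroblast marker genes 12 were detected on APNL+AuEMF, 12 on APNL, 11 on Primary neuron and 12 on Fibroblast, so the neuron array also held fibroblast RNA markers. Of 12 neuron markers 11, 10, 11 and 8 were detected in the same order, and the synaptic gene Snap25 was detected on no array. Of 12 skeletal muscle markers 11 were detected on APNL+AuEMF, 11 on APNL, 4 on Primary neuron and 11 on Fibroblast, and of 10 microglia and macrophage markers 8, 6, 6 and 5. Of the other marker lists, in the order APNL+AuEMF, APNL, Primary neuron and Fibroblast, the arrays detected 7, 7, 6 and 7 of 9 smooth muscle, 2, 2, 0 and 2 of 7 endothelial, 5, 3, 6 and 3 of 8 astrocyte and 3, 3, 2 and 3 of 5 platelet markers. Each array detected 4 of 6 oligodendrocyte lineage markers, and Primary neuron alone detected 1 of 2 red cell markers.

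Of the 11 integrin probes 9 were detected on all 4 arrays and 2 on no array, as the plot of levels by probe shows. The 9 detected probes belong to 6 genes: Itga1, Itga5, Itga11, Itgav, Itgb1 and Itgb5. The primary neuron array had the lowest level for 8 of the 9 probes, and the fibroblast array the highest for 7. For 6 probes, of Itga1, Itga11 (2 probes), Itgav, Itgb1 and Itgb5, the order from high to low was Fibroblast, APNL, APNL+AuEMF and Primary neuron. Some steps in this order were small: by the brightest probes APNL minus Fibroblast was -0.03 for Itgb1 and -0.05 for Itga11. The order is also one of normalized levels. By raw intensity the same probes of Itga11 and Itgb1 were brightest on APNL and Itgb5 on APNL+AuEMF. Those of Itga1 and Itgav were brightest on Fibroblast. Orders were not counted over all detected probes, so these counts cannot be called particular to integrins. In bulk RNA, fewer cells of a type and less RNA per cell cannot be told apart.

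**Figure D1:**
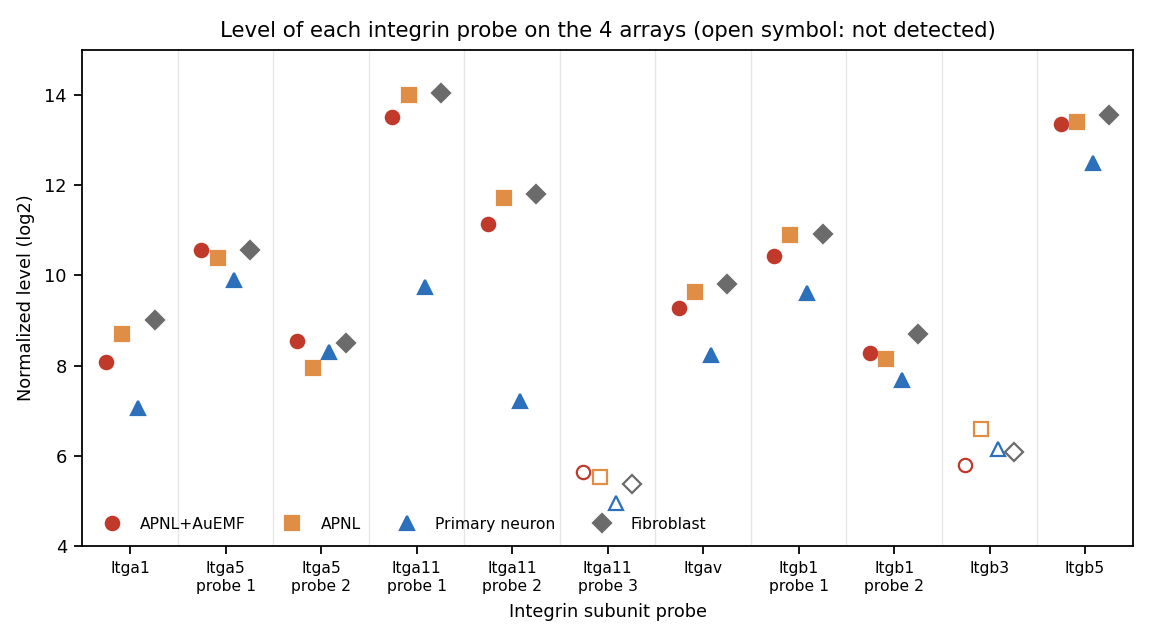
Normalized level (log2, vertical axis) of each of the 11 integrin probes on the APNL+AuEMF, APNL, Primary neuron and Fibroblast arrays, 1 symbol per array, with no error bars because each group has 1 array. Filled symbols are detected; Itga11 probe 3 and Itgb3 are open throughout, and the primary neuron symbol is the lowest for 8 of the 9 detected probes.

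Among the collagen receptor subunits, Itga11 had the widest range over the arrays. Its brightest probe had raw intensities of 12644 on APNL+AuEMF, 16396 on APNL, 1160 on Primary neuron and 16250 on Fibroblast, or log2 levels of 13.51, 14.00, 9.75 and 14.04. The fibroblast and APNL arrays were nearly level, APNL+AuEMF was somewhat below them, and the neuron array was far below all. Itga11 was lower in primary neurons than in fibroblasts with a log2 difference of -4.30, or 19.7-fold, and 0.089% of 8987 compared genes were as low or lower in that comparison. A second probe gave levels of 11.13, 11.72, 7.22 and 11.81 in the same array order and a 24.0-fold lower level in primary neurons than in fibroblasts. The 2 probes differed by 0.29 in this log2 difference, the same as the median gap between probes of a gene. Even so Itga11 was detected in primary neurons by both of these probes. The remaining Itga11 probe was detected on no array, with intensities of 161.3, 147.1, 115.0 and 138.5.

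Itga1, the other collagen-binding alpha subunit, was a dim probe. Its raw intensities were 418.0 on APNL+AuEMF, 456.1 on APNL, 299.6 on Primary neuron and 512.4 on Fibroblast, with log2 levels of 8.07, 8.69, 7.07 and 9.01. The 4 arrays were spread out in steps, with APNL+AuEMF between APNL and Primary neuron. The level was 3.84-fold lower in primary neurons than in fibroblasts. The difference between APNL+AuEMF and fibroblasts, -0.94, was just short of the 2-fold threshold, and 2.28% of 8675 genes were as low or lower. In APNL the difference from fibroblasts was -0.31, which 5.31% of 8242 genes reached. For a dim probe the fold depends on the background correction: without it, the difference between primary neurons and fibroblasts was -1.33 in place of -1.94.

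Itga5, the alpha subunit of the fibronectin receptor, varied least. Its brighter probe had log2 levels of 10.56 on APNL+AuEMF, 10.38 on APNL, 9.91 on Primary neuron and 10.55 on Fibroblast, and the dimmer probe 8.54, 7.95, 8.31 and 8.50. By the brighter probe the neuron array was lowest, and by the dimmer probe the APNL array. Primary neurons differed from fibroblasts by -0.65 and -0.20 by the 2 probes, neither of them a 2-fold difference. APNL differed from primary neurons by 0.47 and -0.35, opposite in sign, so the order of these 2 arrays is not settled for Itga5. APNL+AuEMF stood 0.01 and 0.04 from fibroblasts, and by the brighter probe 62.4% of 8675 genes were as low or lower.

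Itgav, the shared alpha subunit of the vitronectin receptors, had log2 levels of 9.28 on APNL+AuEMF, 9.63 on APNL, 8.24 on Primary neuron and 9.80 on Fibroblast. Its raw intensities were 805.1, 806.1, 510.4 and 844.2, so APNL+AuEMF and APNL were nearly equal before normalization. The level was 2.96-fold lower in primary neurons than in fibroblasts. APNL+AuEMF was 2.06-fold higher than primary neurons and differed from fibroblasts by -0.52. Without background correction, APNL+AuEMF differed from primary neurons by 0.82, short of 2-fold, and primary neurons from fibroblasts by -1.28.

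Of the beta subunits, Itgb1, the common partner of Itga1, Itga5, Itga8 and Itga11, had levels of 10.43 on APNL+AuEMF, 10.90 on APNL, 9.62 on Primary neuron and 10.92 on Fibroblast by its brighter probe. Its dimmer probe gave 8.28, 8.15, 7.67 and 8.70. The fibroblast array was highest and the neuron array lowest by both probes. Primary neurons were 2.47-fold lower than fibroblasts by the brighter and 2.04-fold lower by the dimmer probe. The probes disagreed on APNL, which differed from fibroblasts by -0.03 and -0.55, a gap of 0.52 that lies above the 90th percentile of such gaps. They also disagreed on the sign of APNL+AuEMF minus APNL, at -0.47 and 0.13.

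Itgb5, a partner of Itgav, had raw intensities of 11503 on APNL+AuEMF, 10814 on APNL, 6006 on Primary neuron and 11368 on Fibroblast, and log2 levels of 13.36, 13.41, 12.49 and 13.56. The neuron array was low, and the other 3 lay within 0.20 of each other. The level was 2.10-fold lower in primary neurons than in fibroblasts, and 12.9% of 8987 genes were as low or lower. Itgb3, another partner of Itgav and the beta subunit of the platelet fibrinogen receptor, was detected on no array. Its intensities were 169.3, 193.9, 207.1 and 166.4 in the same array order, and its detection p was lowest in primary neurons, at 0.0188. No difference is given for it.

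Set side by side, the largest differences were those between primary neurons and fibroblasts. Itga11 (-4.30), Itga1 (-1.94), Itgav (-1.56), Itgb1 (-1.31) and Itgb5 (-1.07) were lower in primary neurons, and Itga5 (-0.65) was neither. This is 5 of 6 genes at least 2-fold lower and 0 higher, where over all genes compared 14.9% were lower and 11.0% were higher. Because the genes were listed with earlier results of these data known, this count is a description and no independent test. The median of the 6 was -1.43, beside -0.07 for all genes. With arrays scaled to a common median the median of all genes moved to -0.284, and the differences were -4.60, -1.78, -1.54, -1.44, -1.59 and -0.79 in the same gene order. The summed linear level of the 12 fibroblast markers was 54660 in primary neurons and 134654 in fibroblasts, and that of 12 skeletal muscle markers 1510 and 36256. Such sums include undetected probes and are carried by the brightest ones. The median log2 differences of the compared markers were -1.94 for fibroblast and -2.42 for skeletal muscle. The muscle median is the bound of Chrng, undetected in primary neurons, so the difference may be larger. The part of these markers in the integrin differences was not tested.

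**Figure D2:**
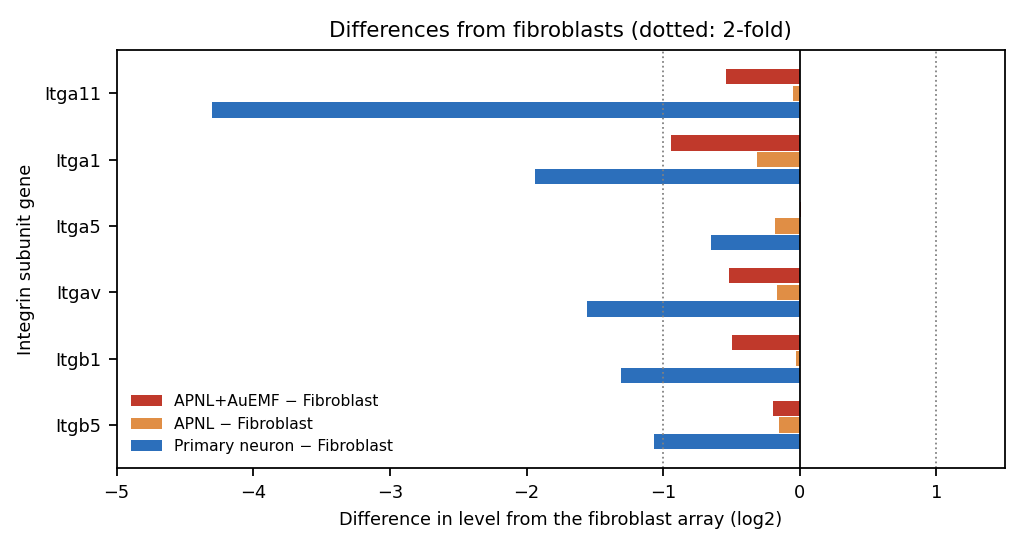
Difference in normalized level from the fibroblast array (log2, horizontal axis) for the 6 detected integrin genes on the APNL+AuEMF, APNL and Primary neuron arrays, 1 bar per array and gene, with dotted lines at 2-fold. The primary neuron bar passes the line on the lower side for all genes drawn except Itga5, and no APNL or APNL+AuEMF bar reaches it; all bars share the same fibroblast array.

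APNL cells were close to fibroblasts in these genes, as they were in nearly all genes compared, and all 6 differences were on the lower side. The differences were -0.03 for Itgb1, -0.05 for Itga11, -0.15 for Itgb5, -0.17 for Itgav, -0.18 for Itga5 and -0.31 for Itga1, with a median of -0.16 beside -0.01 for all genes. None was 2-fold lower or higher, where 0.00% of all genes were lower and 1.55% were higher. These values are from the brightest probe of each gene, and all 6 are below 0.37, the 90th percentile of the gap between probes. The second probes of Itga5 and Itgb1 both gave -0.55, which is beyond it, and that of Itga11 gave -0.09. Fibroblast markers had a summed level of 125729 in APNL and 134654 in fibroblasts.

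APNL+AuEMF cells also passed the 2-fold threshold for no integrin in the comparison with fibroblasts. Itga1 differed by -0.94, Itga11 by -0.54, Itgav by -0.52, Itgb1 by -0.50, Itgb5 by -0.20 and Itga5 by 0.01. With scaling to a common median the value of Itga5 turned to -0.07. The median of the 6 was -0.51 beside -0.07 for all genes, and 1.68% of all genes were lower and 5.22% were higher. Between probes of a gene the 90th percentile of the gap was 0.52 here, which Itga1 and Itga11 exceed. The summed level of muscle markers was 17426 in APNL+AuEMF and 36256 in fibroblasts, and that of macrophage markers 22429 and 3472. That of fibroblast markers was 144100 in APNL+AuEMF and 134654 in fibroblasts. Of 12 fibroblast markers 2 were higher in APNL+AuEMF, Dpt at 1.45 and Dcn at 1.06, and 10 were neither, among them Fap at -0.94, with a median of -0.14. Neuron markers had a median of 2.46 with 7 of 11 higher, where 2.46 is the lower bound of Stmn3, undetected in fibroblasts. The part of these markers in the integrin values was not tested.

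The step from APNL to APNL+AuEMF, which the series title is about, gave Itga1 at -0.63, Itga11 at -0.49, Itgb1 at -0.47, Itgav at -0.36, Itgb5 at -0.05 and Itga5 at 0.18. None of the 6 was 2-fold lower or higher, where 0.759% of all genes were lower and 3.14% were higher. The median was -0.41 beside -0.05 for all genes. The 90th percentile of the gap between probes was 0.53 in this comparison, which Itga1 exceeds. The second probes gave -0.59 for Itga11 and 0.59 for Itga5, both beyond it, and 0.13 for Itgb1. In the same comparison skeletal muscle markers had a median of -0.89 with 3 of 11 lower, macrophage markers 1.90 with 6 of 8 higher, neuron markers 1.21 with 6 of 11 higher and fibroblast markers -0.05 with 2 of 12 higher. Their part in the integrin values was not tested.

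Against primary neurons, both APNL groups had some integrins at higher levels. In APNL+AuEMF the levels of Itga11 (13.5-fold), Itgav (2.06-fold) and Itga1 (2.01-fold) were higher, and those of Itgb5 (1.83-fold), Itgb1 (1.75-fold) and Itga5 (1.57-fold) did not reach 2-fold. This is 3 of 6 higher and 0 lower, beside 7.42% higher and 6.74% lower over all genes, and without background correction only Itga11 was left, 1 of 6. In APNL Itga11 (19.0-fold), Itga1 (3.09-fold), Itgav (2.64-fold) and Itgb1 (2.43-fold) were higher, or 4 of 6, beside 12.7% higher and 10.7% lower over all genes. The call of Itgb1 rests on its brighter probe: the dimmer one gave 0.48 and the mean of both 0.88, which leaves 3 of 6. With scaling to a common median Itgb5 was also higher in APNL, at 1.42, which makes 5 of 6. Medians were 0.94 for APNL+AuEMF and 1.34 for APNL, with all genes at 0.03 and 0.07. These comparisons share the primary neuron array. In APNL+AuEMF 9 of 12 fibroblast, 5 of 11 skeletal muscle and 6 of 8 macrophage markers were also higher than in primary neurons, and 9 of 11 neuron markers were lower. The 6 muscle markers not called there were undetected in primary neurons. Their differences are lower bounds, from 0.25 for Casq2 to 0.97 for Tnnc2, so they may also exceed 2-fold. In APNL 10 of 12 fibroblast, 11 of 11 skeletal muscle and 1 of 6 macrophage markers were higher, and 9 of 11 neuron markers were lower. The part of these markers in the integrin calls was not tested.

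Of 17 other integrin subunits with a probe, 4 were detected on all arrays: Itga3 and Itga6, which pair with beta subunits as laminin receptors, Itga9 and the hemidesmosome subunit Itgb4. Itga9 had levels of 7.93 on APNL+AuEMF, 8.76 on APNL, 6.50 on Primary neuron and 8.91 on Fibroblast, and differed by -2.41 between primary neurons and fibroblasts. Its arrays stood in the same order as those of Itga1. Itgb6, a partner of Itgav best known from epithelia, was detected in APNL and fibroblasts alone and was at least 2.22-fold lower in primary neurons than in fibroblasts. Itga6, Itgb4 and Itga3 were neither, at -0.61, -0.52 and -0.40. The leukocyte subunits Itgam, Itgax and Itgb2 were detected on no array, also not on APNL+AuEMF, where the macrophage markers Lyz2 and Adgre1 were higher than in fibroblasts by 2.94 and 2.41. Itga7, the laminin receptor subunit of muscle, and Itga2b, the platelet partner of Itgb3, were likewise detected on none. Of the 5 other subunits compared, 2 were lower in primary neurons than in fibroblasts, 3 were neither, and the median was -0.61, where over all genes 14.9% were lower.

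**Figure D3:**
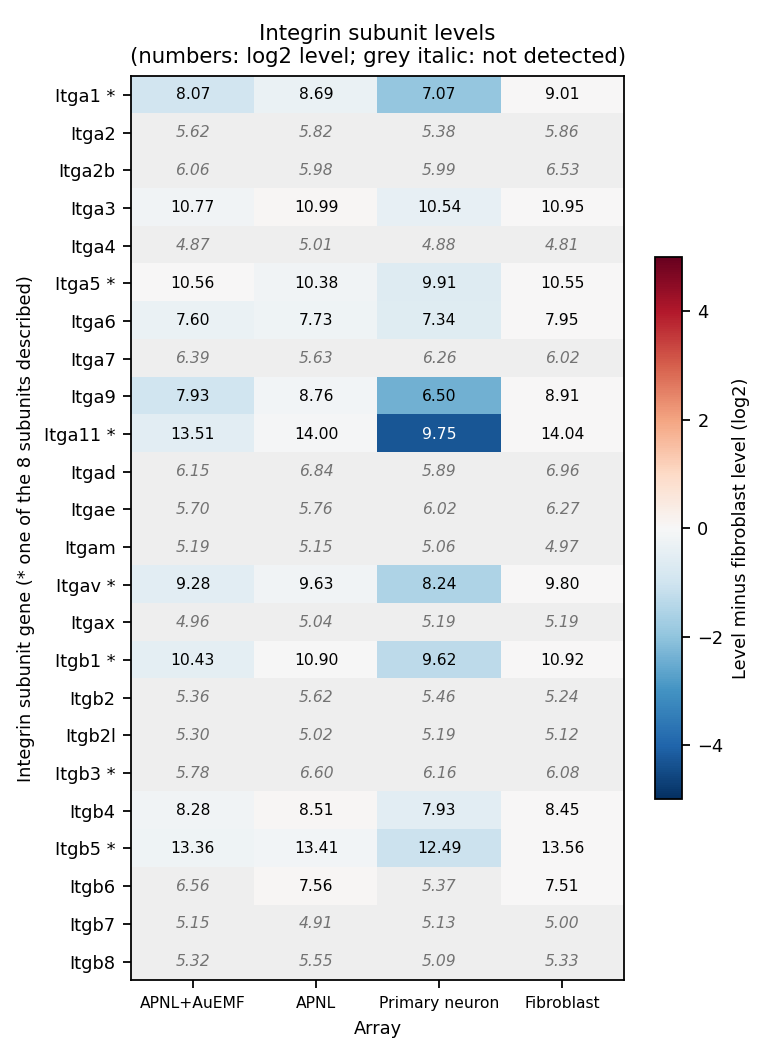
Normalized level (log2, the number in each cell) of 24 integrin subunit genes on the 4 arrays, with colour for the difference from the fibroblast level and grey italics for levels not detected. Colours are read along a row, since levels of different genes cannot be compared; the darkest blue is Itga11 in primary neurons, followed by Itga9.

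Ligands of these receptors were compared in the same way. The gene lists overlap, so some genes are counted in several lists. Among them, the ligands Col1a1, Col1a2 and Col3a1 are also fibroblast markers, and Tgfb1 and Ltbp1 are also TGF-beta genes. Vcl is both an adaptor and a contractile gene, and Acta1 both a contractile gene and a skeletal muscle marker. Of 22 measured ligand genes 12 were at least 2-fold lower in primary neurons than in fibroblasts, 10 were neither and 0 were higher, with a median of -1.06, beside 14.9% lower and 11.0% higher over all genes. Among the 10, Npnt and Edil3 were undetected in fibroblasts, so a 2-fold higher level in primary neurons is not resolved for them. The collagen chain gene Col1a2 differed by -2.30, Nid1 (nidogen, of basement membranes) by -2.28, the collagen chain gene Col3a1 by -2.11 and the laminin chain gene Lamb1 by -1.83. In APNL+AuEMF all 22 ligand genes were neither against fibroblasts, with Lama1 at -0.78, Lamb1 at -0.58, Nid1 at -0.50 and Col1a2 at 0.41. Over all genes in that comparison 1.68% were lower and 5.22% higher. In APNL 21 of 21 were neither, with a median of -0.05, beside 0.00% lower and 1.55% higher over all genes.

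The proteins that link integrins to actin and signalling differed less. Of 28 adaptor and adhesion genes 6 were lower in primary neurons than in fibroblasts, 22 were neither and 0 were higher, with a median of -0.37. Among the 22, Pxn, Ptk2b, Fyn and Itgb3bp (at least 0.61) were undetected in fibroblasts. Whether these were 2-fold higher in primary neurons is not resolved. Over all genes 14.9% were lower and 11.0% higher. Lims2, a PINCH adaptor of integrin-linked kinase, differed by -2.89, Kank2 by -1.58, its relative Kank1 by -1.52, and the PINCH gene Lims1 was at least 2.92-fold lower. Integrin-linked kinase itself, Ilk, differed by -0.41, and the kinase gene Src by 0.75. In APNL+AuEMF Lims1 was lower than in fibroblasts at -1.19 and the other 26 of 27 were neither, with Lims2 at -0.94. Over all genes in that comparison 1.68% were lower and 5.22% higher. Both talin genes, Tln1 and Tln2, which encode activators of integrins, had probes that were detected on no array. Of 11 genes of TGF-beta and its latency, 3 were lower in primary neurons than in fibroblasts, beside 14.9% over all genes: Ltbp4 at -2.34, Tgfb3 at -1.96 and Ltbp3 at -1.29. In APNL+AuEMF all 11 were neither against fibroblasts, with a median of -0.26, beside 1.68% lower and 5.22% higher over all genes. Of 10 contractile and serum response factor target genes 4 were lower in primary neurons than in fibroblasts, namely the actin genes Acta1 (-3.32) and Actg2 (-2.01), Tagln (-1.71) and the vinculin gene Vcl (-1.23), beside the same 14.9% over all genes. Against fibroblasts Acta1 was also lower in APNL+AuEMF, just at the 2-fold threshold, and the other 9 were neither, beside 1.68% lower over all genes.

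**Figure D4:**
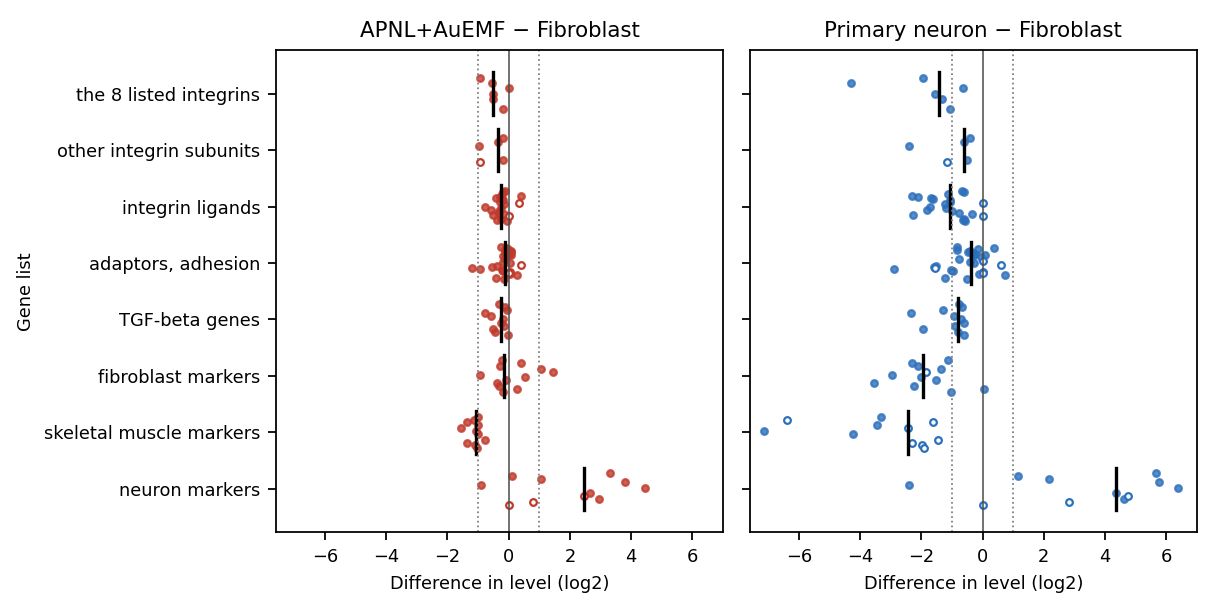
Differences in normalized level (log2, horizontal axis) of APNL+AuEMF (left) and Primary neuron (right) from the fibroblast array for 8 gene lists, with 1 point per gene, open points for lower bounds where 1 array did not detect the gene, a black bar at the list median and dotted lines at 2-fold. In primary neurons the median of the listed integrins, -1.43, lies between those of the adaptors, -0.37, and the fibroblast markers, -1.94; in APNL+AuEMF it is -0.51.

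Genes with the most similar pattern over the 4 arrays were found by the Euclidean distance between log2 levels after each gene's mean was removed, among 5989 other genes detected on all arrays. Itga11 was followed by Meox2 (distance 0.238), a homeobox gene of mesoderm, Fam180a (0.397) and Myl4 (0.406), a muscle myosin light chain gene. Meox2 had levels of 10.54 on APNL+AuEMF, 11.29 on APNL, 6.98 on Primary neuron and 11.40 on Fibroblast. Nearest to Itga1 were Igf2bp1 (0.085), Supt20 (0.085) and Pxdn (0.115), and nearest to Itgav were Elovl1 (0.027), Cyp20a1 (0.033) and Slc66a1 (0.055). For Itgb1 they were Minpp1 (0.017), Msx1 (0.032) and Iqgap3 (0.041), for Itgb5 Hyal1 (0.032), Ddit4l (0.039) and the fibroblast marker Thy1 (0.044), and for Itga5 Zdhhc1 (0.026), Ets2 (0.052) and Apba3 (0.056). With 4 arrays such distances are a description of these arrays.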

How the data were processed

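The authors deposited, for each of 4 arrays, a probe intensity on a linear scale that is not normalized between arrays, with a detection p-value in steps of 1 in 798. The submitters' processing notes name GenomeStudio 2011.1. The authors also deposited log2 values, which equal quantile-normalized log2 intensity within 5e-07. The sources used here do not give chip, scan date or genome build. The deposited intensity was processed with neqc of limma 3.58.1 in R 4.3.3 (normexp background from negative controls inferred from the detection p-values, offset 16, log2, quantile normalization) and tested on simulated data. Python 3.11.15 with pandas 2.3.3 did the rest.

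Of 25697 probes 23978 had 1 gene symbol, 0 several and 1719 none. A gene took its probe with the highest mean level. Groups are the sample titles. Comparison of a gene required detection on 1 or both arrays. Where only 1 detected it, the difference is a bound against the other array's lowest detected value, between 6.36 and 7.13, or the gene's own level if higher. A bound that would turn the sign was set to 0. Bounds short of 2-fold were counted as neither. No test was made, since each group has 1 array. The named genes are the 8 integrins with all probes, other integrin subunits, up to 4 genes per list by absolute difference, and the 3 nearest in pattern whose range reached 0.3. Lists of 204 genes, 176 with a probe, cover integrin ligands, adaptors, contractile and TGF-beta genes and cell type markers. Genes of these lists named otherwise were chosen after their values were seen. The members and lists were chosen with earlier results of these data known. Alternatives are in the closing section.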

Additional observations from a re-analysis of the deposited data

How the results depend on the processing

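Each value was recomputed with no background correction, with normexp at an offset of 50 without control information, with scaling to a common median, from the authors' deposited log2 values, at a detection p under 0.05, with detection on both arrays, with no filter, with probes of a gene averaged and, added after seeing the data, with the 3 arrays other than Primary neuron normalized alone. A value counted as moved beyond 1.5-fold. Of 306 single-gene values 301 did not move so far and 5 did, and 0 of 51 medians moved. Many of these values could not move. The compared genes were detected on all arrays, so the detection and filter settings left their values unchanged by construction. Averaging could not change genes with a single probe, and the deposited log2 values repeat the setting without background correction. The tally is therefore not a measure of robustness. No value called at 2-fold changed sign, while Itga5 in APNL+AuEMF minus Fibroblast, not called at 0.01, was -0.07 with scaling. Those that moved were Itga1 in primary neurons minus fibroblasts (-1.33 without background correction and from the deposited log2 values) and Itga11 with the mean of its probes, which includes the undetected one (2.78 and 3.10 in APNL+AuEMF and APNL minus Primary neuron, -3.10 in Primary neuron minus Fibroblast). Of 114 counts 6 moved. Integrins higher in APNL+AuEMF than in Primary neuron numbered 1 in place of 3 without background correction, with the normexp fit, from the deposited values and at 3-fold. At 3-fold 2 in place of 4 were higher in APNL than in Primary neuron, and 2 in place of 5 lower in Primary neuron than in Fibroblast. The cause was not tested for the other settings, whereas the 3-fold counts are fewer by construction. Over all genes, those lower in Primary neuron than in Fibroblast were 1337, or 872 without background correction, and the split in APNL+AuEMF against Fibroblast was 453 higher and 146 lower, or 324 and 18. With scaling, Itga1 in APNL+AuEMF minus Primary neuron was 0.94, under 2-fold, and Itgb5 was 1.16, over it. No paired analysis was possible because each group has 1 array. Signal over background limits Itga1, Itgav, the dimmer probes of Itga5 and Itgb1, and Itgb3.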
